A study of Homo sapiens with 6 samples.

Results

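The Eph receptors and their membrane-bound ligands, the ephrins, were followed here through 10 genes chosen by symbol: the receptors EPHA1, EPHA2, EPHA4, EPHB2, EPHB3 and EPHB4 and the ligands EFNA1, EFNA5, EFNB1 and EFNB2. All 10 were found among the 20356 gene IDs of the series table, and the other 12 genes of the family served as background. RNA had been sequenced from H1975, a human line of lung adenocarcinoma with mutant EGFR, in 3 parental libraries of cells grown without the drug, and in 3 libraries of its derivative H1975 OR, resistant to the EGFR inhibitor osimertinib and kept in 1 µM of it. The medium, with serum, was the same for both, the series design calls the 3 libraries of each group biological replicates, and the labels do not say whether H1975 OR is a clone or a pool. All resistant cells were in the drug and all parental cells were not, so effects of resistance and of exposure cannot be told apart. The p-values measure only the spread between libraries of 1 parental line and of 1 derivative.

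Eph receptors are the largest family of receptor tyrosine kinases. They bind ephrins on neighbouring cells, and the contact signals both ways, forward through the receptor's kinase and in reverse through the ephrin. Class A ephrins are held by a lipid anchor and mostly bind EphA receptors, while class B ephrins span the membrane, carry a PDZ-binding tail and mostly bind EphB receptors. In epithelia the system helps to set cell adhesion and tissue boundaries, and in lung cancer the receptor EPHA2 is known for signalling without ligand and has been linked to resistance to EGFR inhibitors.

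Of the 10 genes, 9 reached a mean of 1 FPKM (fragments scaled by transcript length and by the mapped total) in at least 1 group and were tested. In H1975 OR, 6 fell (EPHA1, EPHB2, EPHB3, EPHB4, EFNA1 and EFNB2) and 3 rose (EPHA2, EFNA5 and EFNB1) at an adjusted p under 0.05 in limma with Benjamini-Hochberg adjustment over all 12107 genes tested. Of all genes tested, 78.0% passed the same threshold, 39.9% higher and 38.1% lower, so 9 of 9 is read against a background in which most genes differed. By at least 1 on the log2(FPKM + 1) scale, 3 of the 9 fell (EPHA1, EPHB3 and EPHB4) and 1 rose (EFNB1), beside 9.39% and 9.95% of all genes tested. EPHA1 and EPHB3 reached a mean of 1 FPKM only in parental cells, so the filter fixed the direction of their change in advance. This holds for any gene that passed it in only 1 group. The median change of the 9, which include EPHA1 and EPHB3, was -0.78, beside 0.01 for all genes tested. The 3 libraries of one group lay wholly above or below those of the other for each of the 9, which held for 79.8% of all genes tested. The plot of FPKM by library gives every value.

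**Figure D1:**
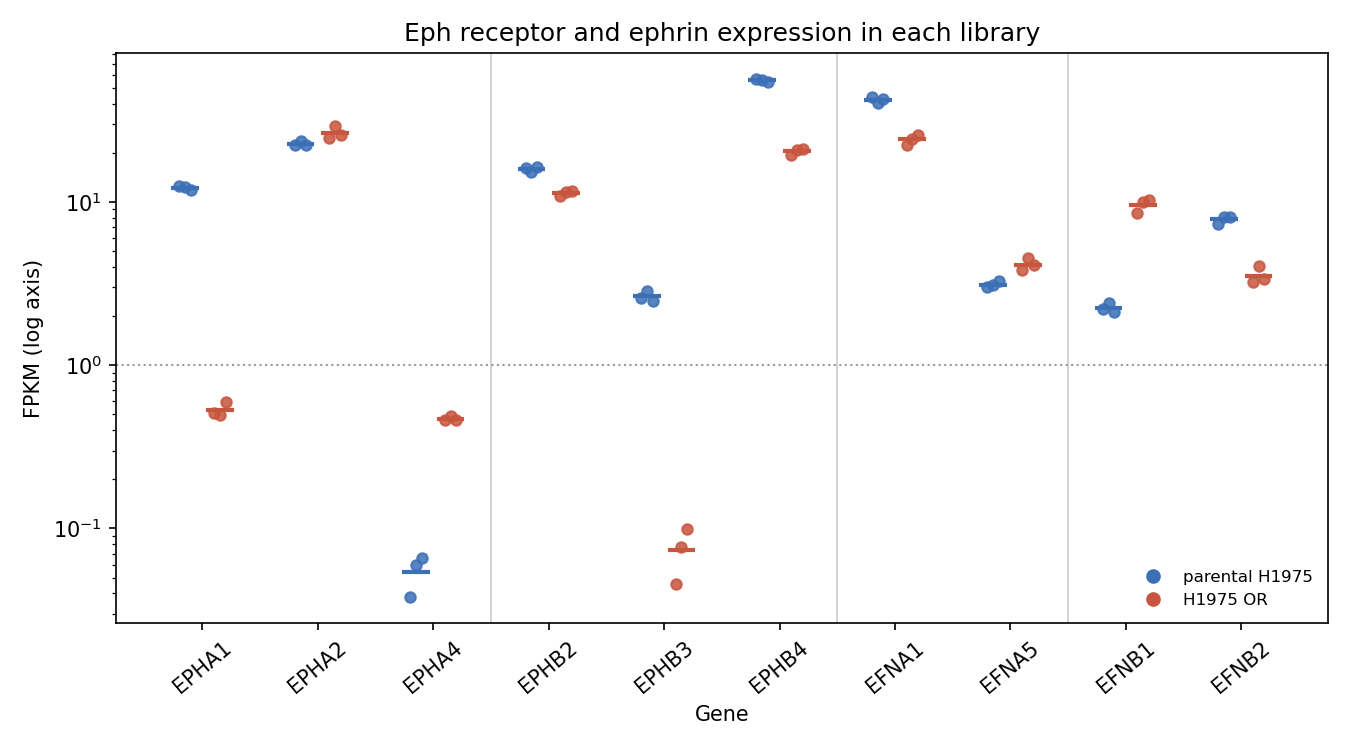
FPKM (log axis) of the 10 genes in the 3 parental (blue) and 3 H1975 OR (red) libraries; points are libraries, short lines group means, and the dotted line is 1 FPKM. EPHA1 and EPHB3 drop below 1 FPKM in H1975 OR, EFNB1 is higher there in each library, and EPHA4 stays below 1 FPKM in all 6.

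The sequences just upstream of the transcription start are shown for EPHA1 and EPHB3, the 2 receptors with the largest falls, and for the 2 class B ligands that moved in opposite directions, EFNB1 and EFNB2. They are the 250 bases before the start on the transcribed strand, 5′ to 3′, from RefSeq on GRCh38.p14, a build other than that of the expression files (GRCh37). Capitals mark the E-box CACCTG on either strand, the core that the repressors ZEB1 and SNAI1 are known to bind.
EPHA1 (chr7:143408857-143409106, minus strand): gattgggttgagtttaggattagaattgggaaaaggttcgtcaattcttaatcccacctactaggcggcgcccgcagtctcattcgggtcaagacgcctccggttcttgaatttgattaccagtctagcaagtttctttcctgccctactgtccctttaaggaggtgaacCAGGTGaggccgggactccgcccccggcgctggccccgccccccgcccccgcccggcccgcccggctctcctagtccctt
EPHB3 (chr3:184561535-184561784, plus strand): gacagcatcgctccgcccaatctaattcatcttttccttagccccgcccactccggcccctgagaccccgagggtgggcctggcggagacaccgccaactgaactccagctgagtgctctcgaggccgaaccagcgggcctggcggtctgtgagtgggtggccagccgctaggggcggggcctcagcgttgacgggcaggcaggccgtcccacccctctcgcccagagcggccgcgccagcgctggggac
EFNB1 (chrX:68828771-68829020, plus strand): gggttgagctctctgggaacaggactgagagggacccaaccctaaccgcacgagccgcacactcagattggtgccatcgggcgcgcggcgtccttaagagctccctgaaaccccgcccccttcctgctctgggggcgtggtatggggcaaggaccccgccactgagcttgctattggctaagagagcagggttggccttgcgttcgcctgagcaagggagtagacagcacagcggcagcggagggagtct
EFNB2 (chr13:106535663-106535912, minus strand): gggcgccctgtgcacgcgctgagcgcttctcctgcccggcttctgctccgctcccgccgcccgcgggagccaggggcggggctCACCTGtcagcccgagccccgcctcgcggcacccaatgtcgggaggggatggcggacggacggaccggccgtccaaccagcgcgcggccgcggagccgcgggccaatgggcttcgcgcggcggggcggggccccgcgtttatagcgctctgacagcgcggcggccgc
RefSeq windows were found for all 10 genes. CACCTG or its complement stood in the windows of 3 of them: 80 bases before the start of EPHA1, 167 before that of EFNB2, and at 62 or 63, depending on the annotated start, before that of EPHB2. Over all 34943 promoter windows of this length the share was 17.5%. This and the later shares are of windows, whereas the counts among the 10 are of genes, some with more than 1 window. EPHB3, with the largest fall as a ratio, held none, nor did EFNB1. The AP-1 motif TGANTCA, searched on both strands, was in 0 of the 10 genes' windows and in 6.59% of all, and the TEAD motif GGAATG, also on both strands, was in 1 (EPHA2) and in 11.9% of all. The motifs do not overlap one another in these windows. A match describes letters, not binding.

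Among the class A receptors EPHA1 fell from the middle of the family's levels to below 1 FPKM. This receptor, the founding member of the family, is typical of epithelial cells. EPHA1 (GRCh37 7:143087382-143105985, minus strand) had 12.5, 12.4 and 11.8 FPKM in replicates 1 to 3 of the parental line, against 0.508, 0.498 and 0.598 in those of H1975 OR. Every resistant library was thus at least 19.8 times below every parental one. The means were 12.2 ± 0.343 and 0.535 ± 0.0553 FPKM (SD, n = 3 per group), 22.9-fold lower in H1975 OR, with a log2 change of -3.11 ± 0.0675 (SE) and an adjusted p of 9.8e-13 in limma. The deposited mean coverage of the gene fell further than its FPKM, from 7.77 to 0.0785 per mapped gigabase, which is 99.0-fold. In bulk libraries fewer cells expressing a gene and less RNA per cell cannot be told apart.

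EPHA2 stayed among the most abundant genes of the family and rose slightly. This receptor, which prefers EFNA1 as a ligand, is the most studied of the family in lung cancer. EPHA2 (1:16450832-16482582, minus strand) had 22.3, 23.5 and 22.3 FPKM in replicates 1 to 3 of the parental line, against 24.7, 29.0 and 25.6 in those of H1975 OR. The groups did not overlap, but the lowest resistant library was only 1.05 times the highest parental one. The means of 22.7 ± 0.724 and 26.4 ± 2.26 FPKM (SD, n = 3 per group) differed 1.17-fold, with a log2 change of 0.21 (95% interval 0.06 to 0.36; limma adjusted p = 0.015). Resistant replicate 2 decided the call: without it the log2 change was 0.14 and the adjusted p = 0.066, in a range of 0.003 to 0.066 over all alternatives.

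EPHA4, which binds ephrins of both classes, was scarce in both groups and did not pass the filter on low values. EPHA4 (2:222282747-222438922, minus strand) had 0.0380, 0.0596 and 0.0659 FPKM in replicates 1 to 3 of the parental line, against 0.460, 0.487 and 0.464 in those of H1975 OR. Each base of the gene was covered 0.447 to 0.516 times on average across the parental libraries, against 3.51 to 4.03 times across those of H1975 OR. The resistant libraries were all higher, 8.63-fold by their means. Tested without the filter, where 61.1% of 18038 genes passed, the log2(FPKM + 1) change was 0.48 ± 0.0182 (SE, limma adjusted p = 4.8e-06).

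All 3 class B receptors among the 10 genes fell. EPHB4 is the receptor of EFNB2 and is known for its part in separating veins from arteries. EPHB4 (7:100400187-100425121, minus strand) had the highest level of the 10 genes in parental cells, with 56.6, 55.6 and 54.0 FPKM in replicates 1 to 3, against 19.4, 20.7 and 21.0 in those of H1975 OR. Its means of 55.4 ± 1.35 and 20.4 ± 0.823 FPKM (SD, n = 3 per group) gave a 2.72-fold fall, a log2 change of -1.40 ± 0.0594 (SE, limma adjusted p = 3.9e-10). The spread within a group was at most 1.08-fold.

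EPHB3 and EPHB2 are known as targets of Wnt signalling that order cells along the intestinal crypt. EPHB3 (3:184279572-184300197, plus strand) had 2.59, 2.85 and 2.47 FPKM in replicates 1 to 3 of the parental line, against 0.0457, 0.0765 and 0.0992 in those of H1975 OR. It fell 35.7-fold by its means, with a range of 24.9-fold to 62.3-fold over pairs of libraries, and the resistant libraries differed 2.17-fold among themselves. On the log2(FPKM + 1) scale, which understates changes of low genes, the change was -1.76 ± 0.0716 (SE, limma adjusted p = 2.7e-10), and -3.99 with a pseudocount of 0.1.

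EPHB2 (1:23037332-23241818, plus strand) had 16.2, 15.3 and 16.3 FPKM in replicates 1 to 3 of the parental line, against 10.8, 11.5 and 11.6 in those of H1975 OR. This was the smallest of the 6 falls, 1.41-fold, with a log2 change of -0.46 ± 0.0605 (SE, limma adjusted p = 1.6e-05). Its level depended on the readout, but its fold hardly did, at 1.40 by coverage. The log2 change by coverage was only -0.20, as the same pseudocount weighs more on low values. The deposited coverage of EPHB2 per mapped gigabase was 0.799 in parental and 0.570 in resistant cells, 0.0502 and 0.0505 of the FPKM. The median gene tested had a ratio of 0.477, and 3.92% of genes tested were as low as EPHB2 or lower. EPHB2 thus ranked 4th of the 10 genes in parental cells by FPKM and 9th by coverage. GENCODE v29 lists 7 EPHB2 transcripts of 536 to 10816 bases. Which of these carried the reads was not tested.

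**Figure D2:**
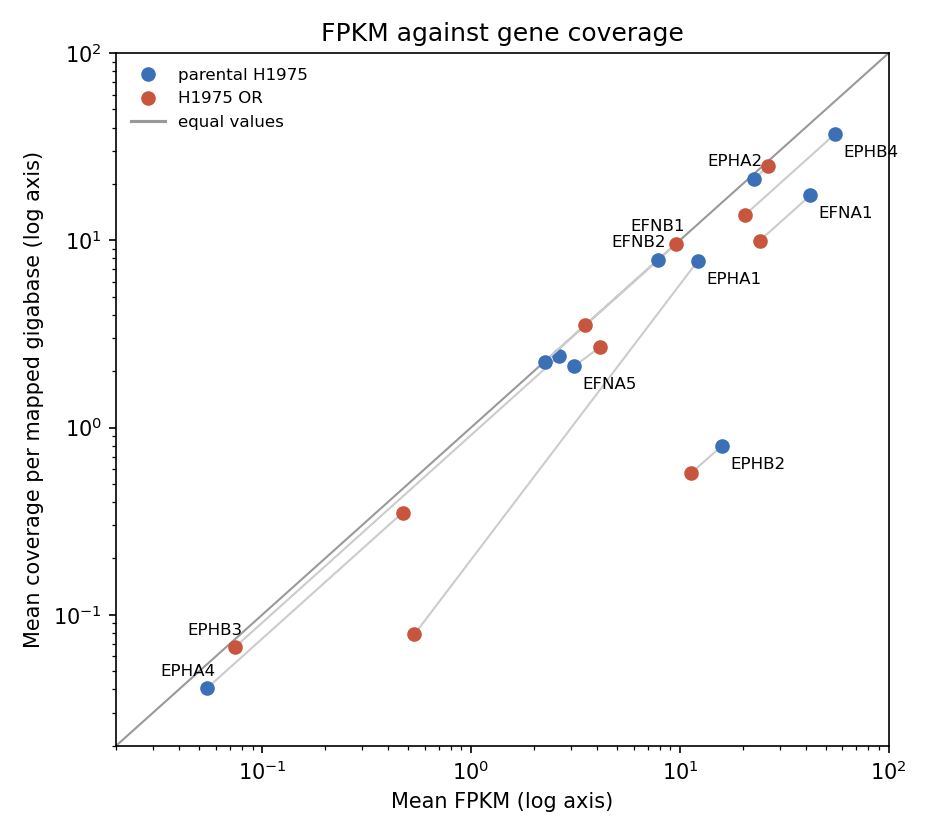
Mean deposited coverage per mapped gigabase against mean FPKM (both log axes) of the 10 genes in parental (blue) and H1975 OR (red) cells, with a grey line joining the groups of a gene and a diagonal for equal values. EFNB1 and EFNB2 lie on the diagonal at a ratio of 1.00, EPHB2 lies far below it in both groups, and EPHA1 moves away from it in H1975 OR. The diagonal is the ratio from which mapped gigabases were estimated, so for EFNB1 and EFNB2 coverage repeats the FPKM and is no separate check.

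The coverage of EPHA1 per mapped gigabase was 0.635 of its FPKM in parental cells but 0.146 in H1975 OR, whereas the ratio of each of the other 9 genes differed by less than the gap seen for EPHA1, as the plot of coverage against FPKM shows. For EFNA5, whose single libraries ran from 0.558 to 0.751, the ratios were 0.685 and 0.653, and for EPHB4 0.668 and 0.666. GENCODE v29 lists 7 EPHA1 transcripts of 568 to 3363 bases. Whether a shift among them moved the ratio was not tested.

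Among the class A ligands EFNA1, a ligand of EPHA2 first found as a product of endothelial cells exposed to tumour necrosis factor, was the most abundant ephrin by FPKM in both groups. EFNA1 (1:155099936-155107333, plus strand) had 43.7, 40.4 and 42.5 FPKM in replicates 1 to 3 of the parental line, against 22.3, 24.3 and 25.7 in those of H1975 OR. It fell 1.75-fold, from 42.2 ± 1.66 to 24.1 ± 1.71 FPKM (SD, n = 3 per group), a log2 change of -0.78 ± 0.0669 (SE, limma adjusted p = 2.8e-07). The ratio of EFNA1 to EPHA2 was 1.96, 1.72 and 1.91 in replicates 1 to 3 of the parental line and 0.903, 0.838 and 1.0 in those of H1975 OR, without overlap. By coverage per mapped gigabase EFNA1 was below EPHA2 in both groups, at 17.4 and 21.3 in parental cells and at 9.94 and 24.8 in H1975 OR.

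EFNA5, a ligand of EphA receptors that also binds EPHB2, rose slightly. EFNA5 (5:106712590-107006596, minus strand) had 3.0, 3.08 and 3.26 FPKM in replicates 1 to 3 of the parental line, against 3.80, 4.51 and 4.08 in those of H1975 OR. The 1.33-fold difference of the means was larger than the spread within either group, with a log2 change of 0.32 ± 0.0739 (SE, limma adjusted p = 0.0017).

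The class B ligands changed places. EFNB1, whose loss causes craniofrontonasal syndrome, had the largest rise of the 9 genes tested. EFNB1 (X:68048840-68061990, plus strand) had 2.22, 2.40 and 2.13 FPKM in replicates 1 to 3 of the parental line, against 8.51, 10.0 and 10.3 in those of H1975 OR. The lowest resistant library was 3.55 times the highest parental one, and the means of 2.25 ± 0.134 and 9.60 ± 0.956 FPKM (SD, n = 3 per group) gave a 4.27-fold rise, a log2 change of 1.70 ± 0.0784 (SE, limma adjusted p = 8.5e-10).

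EFNB2, the ligand of EPHB4 and a marker of arterial endothelium, fell along with that receptor. EFNB2 (13:107142079-107187462, minus strand) had 7.34, 8.13 and 8.11 FPKM in replicates 1 to 3 of the parental line, against 3.22, 4.02 and 3.35 in those of H1975 OR. The means of 7.86 ± 0.450 and 3.53 ± 0.430 FPKM (SD, n = 3 per group) gave a 2.23-fold fall, a log2 change of -0.97 ± 0.0793 (SE, limma adjusted p = 1.8e-07). The ratio of EFNB1 to EFNB2 was 0.303, 0.295 and 0.263 in replicates 1 to 3 of the parental line and 2.64, 2.49 and 3.07 in those of H1975 OR, so each group had the other ligand on top.

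**Figure D3:**
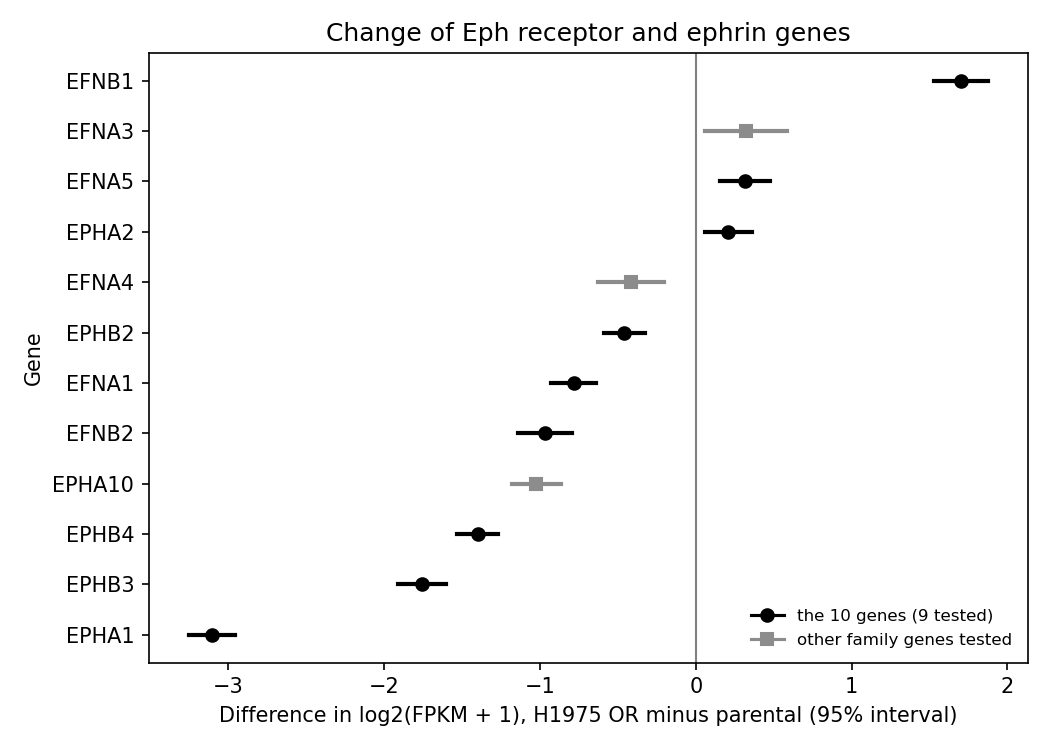
Change in log2(FPKM + 1), H1975 OR minus parental, with 95% intervals from limma, for the 9 tested genes (black) and the 3 other tested genes of the family (grey). EFNB1 stands alone on the right at 1.70 and EPHA1 on the left at -3.11, and no interval crosses 0.

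The order of levels changed as well. By mean FPKM the parental order was EPHB4, EFNA1, EPHA2, EPHB2, EPHA1, EFNB2, EFNA5, EPHB3, EFNB1 and EPHA4, and the libraries of no 2 neighbours in this order overlapped. In H1975 OR it was EPHA2, EFNA1, EPHB4, EPHB2, EFNB1, EFNA5, EFNB2, EPHA1, EPHA4 and EPHB3. There the libraries of EPHA2 and EFNA1 overlapped, as did those of EFNA5 and EFNB2. Within each resistant library EFNA5 was above EFNB2, at 3.80, 4.51 and 4.08 against 3.22, 4.02 and 3.35 FPKM. EPHA2 was above EFNA1 in replicates 1 and 2 but not in replicate 3 (25.6 and 25.7 FPKM), so this pair cannot be ordered. Coverage per mapped gigabase gave other orders: EPHB4, EPHA2, EFNA1, EFNB2, EPHA1, EPHB3, EFNB1, EFNA5, EPHB2 and EPHA4 in parental cells, and EPHA2, EPHB4, EFNA1, EFNB1, EFNB2, EFNA5, EPHB2, EPHA4, EPHA1 and EPHB3 in H1975 OR. EPHB4 was thus above EFNA1 in H1975 OR by coverage (13.6 and 9.94) and below it by FPKM.

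Summed over the 14 receptor genes of the family, receptor FPKM went from 110 ± 1.67 to 59.4 ± 3.17 (SD, n = 3 per group), and ligand FPKM over the 8 ephrin genes from 68.5 ± 2.02 to 53.0 ± 5.07. The class B receptors went from 74.0 ± 1.35 to 31.7 ± 1.30 and the class A receptors from 36.2 ± 0.879 to 27.7 ± 2.22 FPKM. Class A ligands went from 58.1 ± 2.33 to 38.9 ± 3.74 FPKM, while class B ligands were the only class with a higher sum in H1975 OR, 10.4 ± 0.471 and 14.0 ± 1.33. No test was made on these sums, whose genes include the 10 described here.

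Within the classes, EPHA2 made up 62.7% ± 0.592 of class A receptor FPKM in parental cells and 95.4% ± 0.855 in H1975 OR (SD, n = 3 per group), as EPHA1 went from 33.8% to 1.94%. EPHB4 held 50.3% ± 0.535 of all receptor FPKM in parental cells and 34.3% ± 0.993 in H1975 OR, and EPHA2 20.6% ± 0.596 and 44.4% ± 1.86. By coverage per mapped gigabase, in which EPHB2 counts for little, EPHA2 took 30.5% ± 0.571 and 62.8% ± 1.76 of the receptor sum. Among class B ligands the share of EFNB1 went from 21.7% ± 1.27 to 68.4% ± 0.874. The stacked plot of the family shows these shares by library.

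**Figure D4:**
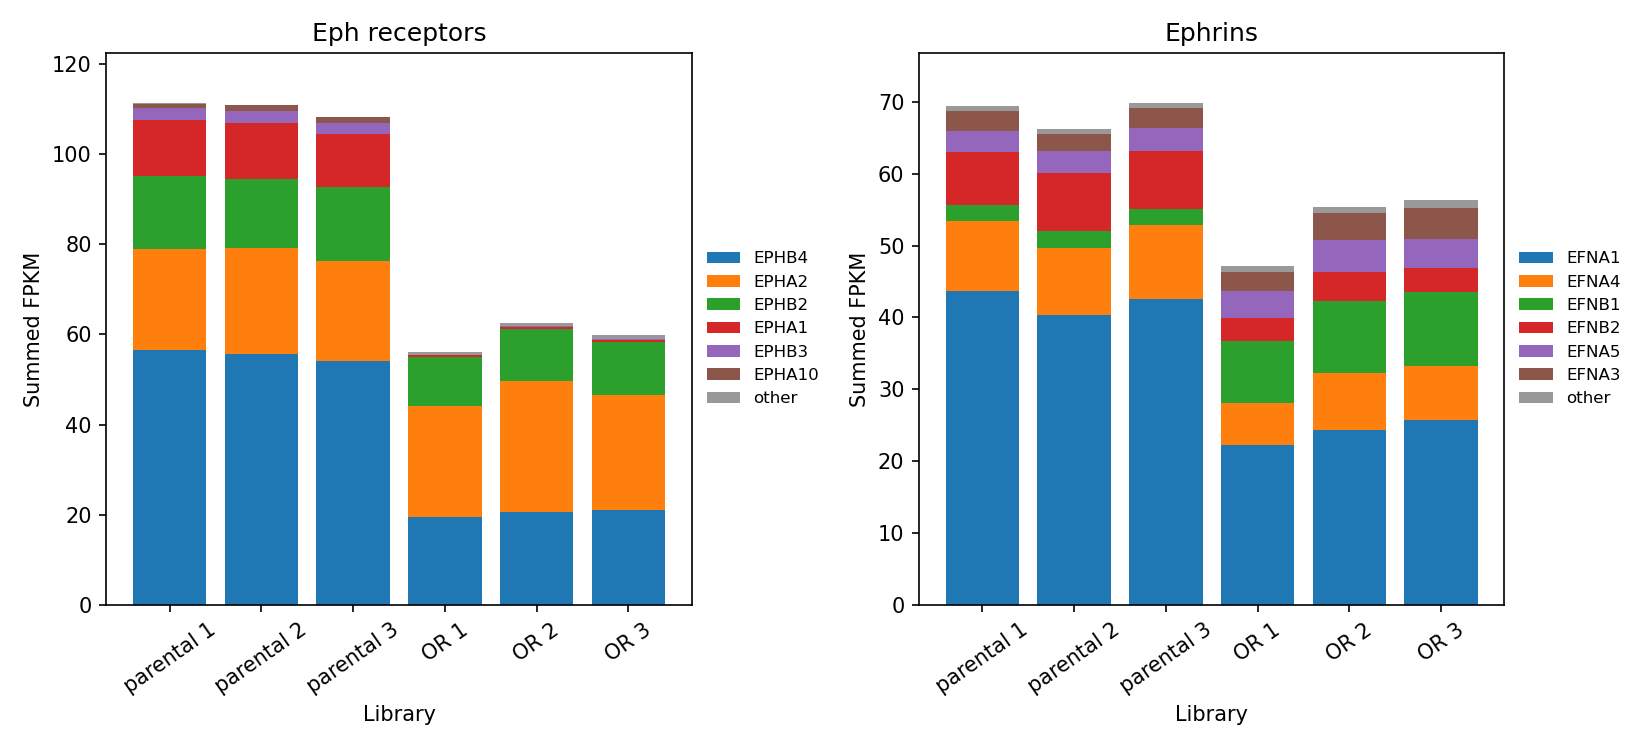
Summed FPKM of the 14 Eph receptor genes (left) and the 8 ephrin genes (right) in each library, stacked by gene, with the less abundant genes pooled as other. EPHB4 (blue) shrinks and EPHA1 (red) nearly vanishes among receptors in the OR libraries, while EFNB1 (green) widens among ephrins.

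Of the other 12 family genes only 3 reached the level tested. EPHA10, a receptor without kinase activity, fell from 1.15 ± 0.132 to 0.0547 ± 0.00783 FPKM (SD, n = 3 per group), with a log2 change of -1.02 and an adjusted p of 4.4e-08 in limma. Its log2 change was -3.01 with a pseudocount of 0.1, and -0.62 by coverage with the pseudocount of the main fit. EPHA10 passed the filter only through its parental mean, so the direction of its change was fixed in advance. EFNA4 fell from 9.78 ± 0.613 to 7.13 ± 1.13 FPKM (log2 change -0.42, limma adjusted p = 0.0021). EFNA3 passed at 2.60 ± 0.244 and 3.54 ± 0.784 FPKM (log2 change 0.32, limma adjusted p = 0.029), but its groups overlapped. Its call ended when parental replicate 2, parental replicate 3, resistant replicate 2 or resistant replicate 3 was left out, with limma adjusted p = 0.10, 0.056, 0.098 and 0.099, in a range of 0.00048 to 0.10 over its alternatives. EFNA4 and EFNA3 have overlapping spans on the same strand of chromosome 1, so their split of reads is uncertain, and EFNA1 lies close by. The other 9 genes stayed below the level tested: EPHA3 and EPHA7 were listed at 0 in all 6 libraries, EPHA5, EPHA8, EPHB1 and EPHB6 were at most 0.0236 FPKM in each, and EPHA6, EFNA2 and EFNB3 had group means under 1 FPKM. EFNA2 had 0.380, 0.422 and 0.424 FPKM in replicates 1 to 3 of the parental line, against 0.0123, 0 and 0.0209 in those of H1975 OR, and EFNB3 at 0.292, 0.229 and 0.302 against 0.774, 0.762 and 1.19.

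Of 49 adaptors, exchange factors, kinases, phosphatases and proteases known to act with Eph receptors or ephrins, 45 were tested, and 16 rose, 21 fell and 8 did not pass, beside the 78.0% of all genes that passed. Their median change was -0.12. The largest rise was that of MMP14, a membrane-bound matrix protease that can cleave EPHA2, from 2.68 ± 0.531 to 81.8 ± 6.44 FPKM (log2 change 4.50). The Src-family kinase gene FYN (2.35) and RGS3 (1.45), a regulator of G-protein signalling that binds B ephrins, rose as well. The largest falls were those of the exchange factor gene KALRN, from 11.9 ± 1.19 to 0.239 ± 0.0773 FPKM (log2 change -3.37), of the adaptor gene GRB7 (-2.71) and of NCK2 (-1.27), an adaptor of reverse signalling by B ephrins. Each of these 6 had an adjusted p of 4.2e-08 or less in limma. KALRN and VAV3 reached a mean of 1 FPKM only in parental cells, so the filter fixed the direction of their change in advance. With the filter set on both groups, 35 partners passed. By coverage per mapped gigabase, with the same pseudocount, the log2 values were smaller for KALRN (-0.32), NCK2 (-0.28), FYN (0.60) and RGS3 (0.62), with the same direction. The pseudocount limits the log2 change of a gene with low coverage, so these values do not give the size of its fold.

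Set beside the 44 receptor tyrosine kinases outside the family, of which 22 were tested, 7 rose and 15 fell, beside the 78.0% of all genes tested that passed, and their median was -0.43 beside 0.01. Among them 6 fell and 4 rose by at least 1 on the log2 scale, as did 9.39% and 9.95% of all genes tested. The largest falls were those of ERBB3 (-3.29), CSF1R (-2.01) and MST1R (-1.69), and the largest rises those of PDGFRB (2.24), FGFR1 (1.25) and DDR2 (1.18). With a pseudocount of 0.1 these rises were 4.80, 1.49 and 2.85 and CSF1R was at -3.29. By coverage, with the pseudocount of the main fit, DDR2 was at 0.44, so the log2 sizes and their order depended on the setting. ERBB3, CSF1R, FGFR3, LMTK3 and STYK1 reached a mean of 1 FPKM only in parental cells, and PDGFRB and DDR2 only in H1975 OR. The filter thus fixed the direction of these kinases in advance. With the filter set on both groups, 15 kinases passed. EPHA1 fell about as far as ERBB3, the kinase-impaired partner of EGFR, which went from 18.3 ± 2.39 to 0.984 ± 0.324 FPKM. Whether Eph receptors differ as a group from these kinases was not tested.

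Genes next to the 10 on the chromosome were compared with them. Around EPHA1, all 8 tested genes within 1 Mb fell, with a median of -1.30 and a range of -3.15 to -0.63, and the median of the other 567 tested genes of chromosome 7 was -0.55. EPHA1 itself, at -3.11, was lower than 7 of these 8. Around EPHB4, on the same chromosome, 33 of 41 neighbours fell and 3 rose, with a median of -0.65, and 4 of them fell further than EPHB4. At the threshold of these counts, 38.1% of all genes tested fell and 39.9% rose. The part that chromosome 7 had in the falls of EPHA1 and EPHB4 was not tested.

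The other genes stood differently to their surroundings. EPHB3 fell further than each of its 23 tested neighbours, whose median was -0.21 and lowest value -0.77. EFNB1 rose further than its 3 neighbours, at -0.23 to 0.71. The single tested neighbour of EFNB2, ARGLU1, rose by 0.60 while EFNB2 fell. EPHA2 (0.21) lay at the median of its 20 neighbours (0.21), EPHB2 (-0.46) was lower than the median of its own 20 (-0.26), and EFNA1 (-0.78) was higher than only 2 of its 47.

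**Figure D5:**
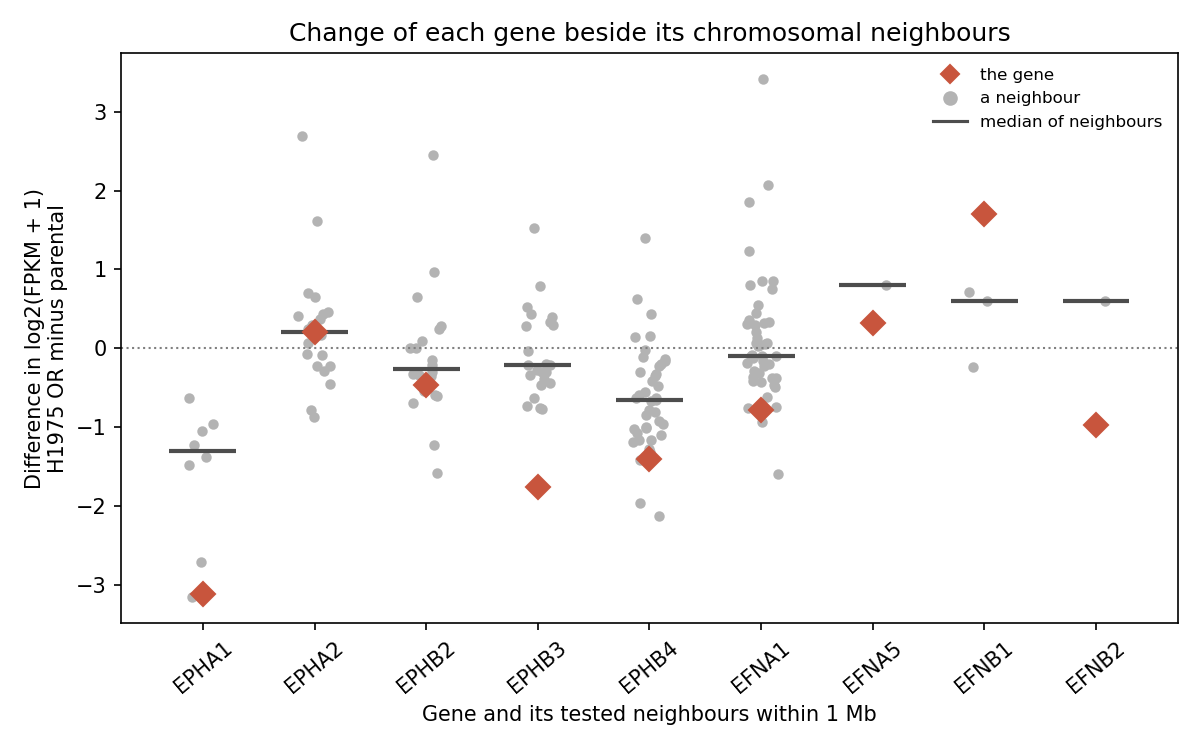
Change in log2(FPKM + 1), H1975 OR minus parental, of 9 genes (red diamonds), of the tested genes within 1 Mb of each (grey points, spread sideways for clarity) and the neighbours' median (dark line). EPHB3 and EFNB1 lie outside the range of their neighbours, and EPHA1 lies near the bottom of a group that fell throughout. EFNB2 and EFNA5 each have a single tested neighbour, so no range is given for them.

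Some gene models overlap those of the family, and no source used here says whether counting used strand. The last 823 bases of EPHA1 overlap ZYX on the opposite strand, which was at 106 ± 4.98 and 54.4 ± 2.0 FPKM (SD, n = 3 per group). EPHB4 shares 680 bases with SLC12A9, also on the opposite strand, at 17.7 ± 0.486 and 7.90 ± 0.601 FPKM. EPHB3 lies within the span given for EIF2B5 on the same strand, at 31.7 ± 2.27 and 27.3 ± 1.29 FPKM. How far reads were shared between these genes was not tested.

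Among the 3 genes with the most similar profile to EFNB1, the tested gene with the largest rise on the log2(FPKM + 1) scale, by Euclidean distance of these values over the 6 libraries, were TMEM180 (distance 0.177) and PLD1 (0.277). For EPHA1, with the largest fall on that scale, they included the exchange factor gene ARHGEF5 (0.374) and the junction gene PLEKHA7 (0.378). ARHGEF5 is also one of the 8 neighbours of EPHA1, at 11.1 ± 0.418 and 0.363 ± 0.0373 FPKM (SD, n = 3 per group), and has a near-identical copy nearby, ARHGEF35, between which reads may be split. The measure rests on 3 libraries in each of 2 groups, so it reflects the level in each group above all.

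The estimated mapped sequence was 9.72 to 14.7 gigabases per library. Of 9 epithelial and lung adenocarcinoma markers 7 were tested and all fell, among them EPCAM (211 ± 15.6 to 1.02 ± 0.237 FPKM) and CDH1 (68.6 ± 3.72 to 0.0248 ± 0.0135), while KRT8 and KRT18 fell to 384 and 274 FPKM and NKX2-1 was listed at 0 in each resistant library. The summed level of these markers was 2980 to 3490 FPKM in parental and 915 to 992 in resistant libraries. Of 9 fibroblast markers 3 were tested and rose (summed 3.65 to 4.62 and 19.9 to 24.1 FPKM), with DCN listed at 0 throughout and LUM under 0.03 FPKM. Of 6 endothelial markers found CDH5 alone was tested and rose (0.503 to 1.06 FPKM, summed 0.679 to 0.856 and 1.20 to 1.60 FPKM), with VWF at most 0.03 FPKM. Of 7 leukocyte markers CD14 and CD68 rose (summed 24.1 to 27.6 and 70.3 to 80.2 FPKM), with CD3E listed at 0 and PTPRC at most 0.0404 FPKM. Among the tested markers, CDH1 and NKX2-1 reached a mean of 1 FPKM only in parental cells, and PDGFRB and CDH5 only in H1975 OR. For these the filter fixed the direction in advance. The part of these marker changes in the results was not tested.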

How the data were processed

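RNA-seq of 6 libraries was used, grouped by the sample titles. The submitters' processing notes name the build GRCh37 and the tool DESeq, the latter without version or role. For aligner, quantifier and annotation release, nothing is given in the sources used. Deposited by the authors were FPKM in a series table, and per the file headers each library file adds coordinates, TPM and mean coverage. FPKM of the 2 sources differed by more than 0.00001 for 1 to 4 genes per library. Read counts were not used. Mapped gigabases were estimated as the highest ratio of deposited coverage to FPKM shared by many genes; without counts, counting error has no interval here, and a listed 0 can stand for an estimate that failed.

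Genes with a group mean of at least 1 FPKM entered limma 3.58.1 (R 4.3.3) as log2(FPKM + 1), fitted on group alone with moderation that was robust and followed the intensity trend. Its two-sided p-values were adjusted after Benjamini-Hochberg over 12107 genes, with 0.05 as threshold. Gene coordinates, 1-based, are those of the deposited files. The members and lists were chosen with earlier results of these data known. Named genes were the 10 members, the tested family genes, the 3 largest rises and falls of each list whose groups did not overlap, and the 3 nearest profiles of 2 members, of which 1 each is not reported here; other genes were named after their values were seen. Simulated data with 200 of 12107 genes changed gave 100% recovery at log2 sizes of 0.5 and 1, with 4.31% of calls false. The simulation changed far fewer genes than were called in the data and took its noise from the parental libraries. These rates need not hold for the real fit. Alternatives were the pseudocount, the filter, the scaling, TPM, the moderation, a replicate block, each replicate left out and, chosen after seeing the data, coverage per mapped gigabase.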

Additional observations from a re-analysis of the deposited data

Results flagged for a closer look

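CTD-2308L22.1, a gene model given only in the library files, overlaps the start of EPHA4 by 1697 bases on the opposite strand (GRCh37 2:222437226-222439174). It had 0, 0 and 0.0125 FPKM in replicates 1 to 3 of the parental line, against 0.0793, 0.0809 and 0.0536 in those of H1975 OR, a mean of 0.0713. It is listed here because it lies outside the series table and every resistant library was above every parental one. It moved the same way as EPHA4, and whether the 2 share reads was not tested.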

How the results depend on the processing

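Of 125 values of the 10 genes under the alternatives in which they could be fitted, 123 kept their direction and their side of the threshold and 0 reversed. The exceptions were EPHA2, whose call ended without resistant replicate 2 (limma adjusted p = 0.066), and EPHA4, tested and called only without the filter on low values. Most alternatives could not reverse a direction. The filter, the moderation and the replicate block leave the log2 change as it is. Leaving out 1 library cannot reverse groups that do not overlap. EPHA1 and EPHB3 could not be tested with the filter set on both groups, which left 4 genes lower and 3 higher. The count of genes higher ranged from 2 to 4 and that of genes lower from 4 to 6 over all alternatives. Genes past the threshold ranged from 8217 to 11014 of those tested. Calls for the Eph signalling partners ranged from 34 to 39, for the other family genes from 2 to 4 and for the other receptor tyrosine kinases from 15 to 30. Of 285 values of the 21 other genes chosen by the rule for named genes, 6 lost their call, all of them EFNA3, and 0 reversed; without the filter EFNA3 had an adjusted p = 0.091 and by coverage 0.078. With the replicate number as a replicate block, 9422 genes passed beside 9448, and the calls of the 10 genes stayed at 3 higher and 6 lower. Same-numbered libraries deviated with correlations of -0.135, 0.0761 and 0.0990, so the numbers were not taken to pair them. Median-of-ratios scaling and TPM moved the median change of all genes to -0.00135 and 0.0449 from 0.0114. Depth limits EPHA4 and the resistant levels of EPHB3 and EPHA1, with coverage of 0.432 to 1.06 per base in these last 2.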
